A study of Mus musculus with 6 samples.

Results

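Expression was described for 6 genes of fibroblasts, meninges and extracellular matrix, *Col1a1*, *Fbln1*, *Mfap4*, *Colec12*, *Slc6a13* and *Ptgds*, in the injured peripheral ventrotemporal (VT) retina of WT and Slc6a4-/- mice. They are 6 of the 701 genes in the deposited table. The table holds only genes that the study selected on the difference between these genotypes in these samples, and the 6 were picked from it with their values known, *Col1a1* because it lay lower in Slc6a4-/- retina and the other 5 because they lay higher. Their difference between genotypes therefore chose them. It is given below as a description, with no test.

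WT mice were C57BL/6J. Slc6a4-/- mice, labelled as C57BL/6 in strain, carry a constitutive deletion of the gene for SERT, the serotonin transporter, and come from a separate line. All mice were 8 weeks old (postnatal day 56), and in all of them the optic nerve of the left eye had been crushed (optic nerve crush, ONC) and the retina collected 24 hours later, so no uninjured retina was compared. There were 3 samples per genotype, and each was made from the pooled peripheral VT retinae of 3 mice. Replicate error below is therefore the spread between pools, and the sex of a pool was not given. Sums over the 701 genes ran from 1051620 to 1427001 counts per sample, and *Slc6a4* had 1397 to 1548 counts in WT samples against 0, 0 and 3 in Slc6a4-/- samples. Values below are scaled counts, which are read counts divided by the relative sum of the 701 genes in that sample.

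The neural retina itself holds few fibroblasts. Matrix-producing cells lie around it, in the sclera, the choroid, the ciliary body, the meningeal sheath of the optic nerve and the walls of vessels, and pigment epithelium and ciliary epithelium adjoin its edge. Type I collagen is the main fibrillar collagen of stroma such as the sclera, whereas fibulins and microfibril proteins belong to elastic fibres and basement membranes, and meningeal fibroblasts are known for secreted enzymes and solute transporters. The labelled tissue was reflected in the table by retinal neuron markers, 10 of 19 listed, whose scaled counts summed to between 45620 and 60370 per sample. Several defining fibroblast genes (*Col1a2*, *Col3a1*, *Dcn*, *Lum* and *Pdgfra*) are not in the table and were not analysed here, so the 6 genes are described by name and not as a cell type. In a bulk sample, fewer cells of a type and less RNA per cell cannot be told apart.

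The sequence before the start is shown for *Fbln1*, *Slc6a13* and *Ptgds*, the 3 of 6 genes that have a RefSeq promoter entry (GRCm38.p6). Each line runs 5′ to 3′ on the gene's strand and stops before the first annotated exon base, and capitals mark a GC box (GGGCGG on either strand). The stretches are chr15:85205699-85205948 for *Fbln1*, chr6:121300038-121300226 for *Slc6a13* and chr2:25469843-25469999 for *Ptgds*, the last of which lies in the first intron of a longer *Ptgds* transcript.
Fbln1: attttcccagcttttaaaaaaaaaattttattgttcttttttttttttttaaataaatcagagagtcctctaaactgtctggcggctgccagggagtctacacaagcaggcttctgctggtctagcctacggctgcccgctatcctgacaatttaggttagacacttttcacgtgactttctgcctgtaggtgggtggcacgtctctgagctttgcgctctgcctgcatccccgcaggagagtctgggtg
Slc6a13: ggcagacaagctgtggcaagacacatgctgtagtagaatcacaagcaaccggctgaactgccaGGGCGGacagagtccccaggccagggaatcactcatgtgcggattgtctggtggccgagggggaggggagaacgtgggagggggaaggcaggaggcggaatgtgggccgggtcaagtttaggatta
Ptgds: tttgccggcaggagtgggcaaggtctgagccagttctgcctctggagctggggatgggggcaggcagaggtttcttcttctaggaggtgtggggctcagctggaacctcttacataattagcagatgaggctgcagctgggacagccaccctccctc

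In the 250 bases before the RefSeq start, 5 motifs were looked for on both strands: the TATA box as TATAAA, the CCAAT box by those letters, the GC box as GGGCGG, the AP-1 motif as TGANTCA and a forkhead motif as GTAAACA. The *Slc6a13* window held GGGCGG at 187 and at 50 bases before the start, a motif present in 32.7% of all 32851 promoter windows of that length. The *Ptgds* window held the AP-1 motif at 35 bases before the start, as did 6.75% of all windows. None of the 5 motifs was found in the *Fbln1* window, and no motif was shared by the 3 windows. The TATA box, the CCAAT box and the forkhead motif were found in 12.4%, 33.8% and 3.17% of all windows. The letters matched are a description of these windows and do not show binding. GC content was 46.4% in the *Fbln1* window, 60.8% in the *Slc6a13* window and 58.4% in the *Ptgds* window, against a median of 52.4%.

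*Col1a1* (ENSMUSG00000001506, chr11:94936224-94953042 on GRCm38, plus strand), which encodes the alpha 1 chain of type I collagen, was the only one of the 6 that was lower in Slc6a4-/- retina, as its choice required. WT samples 1, 2 and 3 had scaled counts of 169.2, 120.7 and 335.9, and Slc6a4-/- samples 1, 2 and 3 had 72.5, 57.4 and 109.0. WT sample 3 stood highest, at 198.6% of WT sample 1, and every WT sample lay above every Slc6a4-/- sample. The lowest WT sample and the highest Slc6a4-/- sample were close, at 120.7 and 109.0. WT retina averaged 208.6 ± 112.9 and Slc6a4-/- retina 79.6 ± 26.6 (SD, n = 3 pools each). This is a log2 fold change of -1.30 (SE 0.42). Of the 701 genes, 28.5% lay lower in Slc6a4-/- without overlap, and since the table was selected on this contrast nothing is read from that share.

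The elastic fibre genes ran the other way. *Fbln1* (ENSMUSG00000006369, chr15:85205949-85286535, plus strand) encodes fibulin 1, a glycoprotein of basement membranes and elastic fibres. In the order of the sample numbers, WT retina had 3591, 1916 and 582.8 and Slc6a4-/- retina 4427, 2427 and 3395. WT sample 1 lay above 2 of the 3 Slc6a4-/- samples, and the WT samples spanned a 6.16-fold range. *Mfap4* (ENSMUSG00000042436, chr11:61485431-61488900, plus strand), which encodes microfibril-associated protein 4, had 257.5, 129.4 and 45.6 in WT and 319.5, 223.8 and 272.5 in Slc6a4-/-. WT sample 1 lay above the lowest Slc6a4-/- sample, and WT sample 3 was again the lowest of the 6. *Mapk7*, on the opposite strand, overlaps the last 89 bases of *Mfap4*, and whether the counting used strand is not given in the sources used here. *Fbln1* averaged 2030 ± 1508 in WT against 3416 ± 1000 (SD, n = 3 pools), and its log2 fold change was 1.06 (SE 0.63). *Mfap4* averaged 144.2 ± 106.7 against 271.9 ± 47.9 (SD, n = 3 pools), and its log2 fold change was 1.22 (SE 0.58).

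*Colec12* (ENSMUSG00000036103, chr18:9707595-9882644, plus strand) encodes collectin 12, a membrane scavenger receptor with a collagen-like stalk and a C-type lectin domain. Its values were 298.5, 177.9 and 57.8 in WT and 438.8, 300.8 and 256.1 in Slc6a4-/-. WT sample 1 lay within the range of the Slc6a4-/- samples, just under Slc6a4-/- sample 2. WT retina averaged 178.1 ± 120.3 and Slc6a4-/- retina 331.9 ± 95.3 (SD, n = 3 pools). The log2 fold change was 1.15 (SE 0.58).

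*Slc6a13* (ENSMUSG00000030108, chr6:121300227-121337733, plus strand) encodes GAT2, a transporter for GABA and taurine that belongs to the same SLC6 family as SERT and is known from the leptomeninges. Its scaled counts were 1035, 590.8 and 173.5 in WT and 1348, 986.1 and 916.4 in Slc6a4-/-. WT sample 1 lay above 2 of the Slc6a4-/- samples, while WT sample 3 had 5.97-fold fewer counts than WT sample 1. *Slc6a13* averaged 599.9 ± 431.1 and 1083 ± 232 (SD, n = 3 pools), and its log2 fold change was 1.17 (SE 0.61).

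*Ptgds* (ENSMUSG00000015090, chr2:25466709-25470046, minus strand) encodes lipocalin-type prostaglandin D2 synthase, a secreted enzyme and lipid carrier made by leptomeninges, choroid plexus and pigment epithelium. Its scaled counts were 4778, 3196 and 1316 in WT and 6819, 4991 and 4039 in Slc6a4-/-. It had the narrowest WT range of the 5 genes other than *Col1a1*, 3.63-fold, and WT sample 1 lay above Slc6a4-/- sample 3. *Ptgds* averaged 3097 ± 1733 and 5283 ± 1413 (SD, n = 3 pools), and its log2 fold change was 0.92 (SE 0.47).

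All 5 genes thus had overlapping genotypes, whereas 33.2% of the 701 genes lay higher in Slc6a4-/- without overlap. None of the 6 genes was among the 10 (1.43%) of the table's 701 genes called by limma at an adjusted p under 0.05. Of the table, 363 genes had an unadjusted p under 0.05. The mean in Slc6a4-/- was 1.68 to 1.89 times that in WT for the 5 genes, and the median log2 fold change of the 5 was 1.15, beside 0.23 over all 701 genes. Without any scaling the median of all genes was 0.47 and that of the 5 was 1.39, and *Mfap4* was then without overlap. So were 325 of the 701 genes in that direction without scaling, beside 233 with it.

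**Figure D1:**
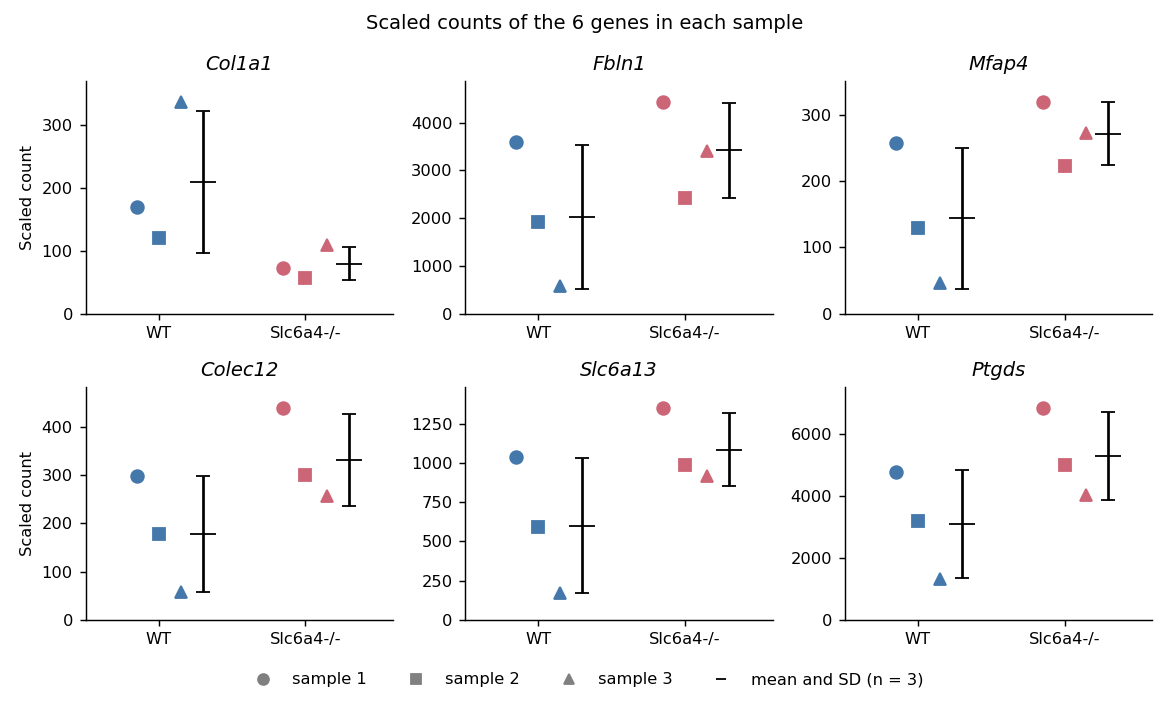
Scaled counts (vertical axis, starting at 0) of each gene in the 3 WT samples (blue) and the 3 Slc6a4-/- samples (red), with sample number by symbol and the mean and SD in black. *Col1a1* is highest in WT sample 3 (335.9), while the other 5 genes are lowest there, with WT sample 1 inside the range of the Slc6a4-/- samples.

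The spread within WT was the main feature of the 5 genes. Each was ordered WT sample 1 above sample 2 above sample 3, an order that 27.8% of the 701 genes had. WT sample 2 held 50.2% to 66.9%, and WT sample 3 16.2% to 27.5%, of the scaled count of WT sample 1. WT sample 1 itself reached 89.9% to 105% of the Slc6a4-/- mean. In Slc6a4-/- retina the same 5 genes spanned only 1.43-fold to 1.82-fold ranges. Sample 1 was the highest of the Slc6a4-/- samples for each of them, and the lowest was sample 2 for *Fbln1* and *Mfap4* and sample 3 for *Colec12*, *Slc6a13* and *Ptgds*.

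On the log2 scale, the SD among WT samples was 1.33 for *Fbln1*, 1.31 for *Slc6a13*, 1.24 for *Mfap4*, 1.20 for *Colec12* and 0.95 for *Ptgds*, and these are the 21st to the 51st largest of the 701 genes. The median gene had an SD of 0.18 in WT and 0.20 in Slc6a4-/-. Among Slc6a4-/- samples the SDs of the 5 genes were 0.26 to 0.43. *Col1a1* had an SD of 0.75 in WT and 0.46 in Slc6a4-/-. Counting error is small beside this: for the 6 genes it ran from 0.022 to 0.225 on the log2 scale in a single WT sample, the largest value being that of *Mfap4* in WT sample 3, which had 41 reads.

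**Figure D2:**
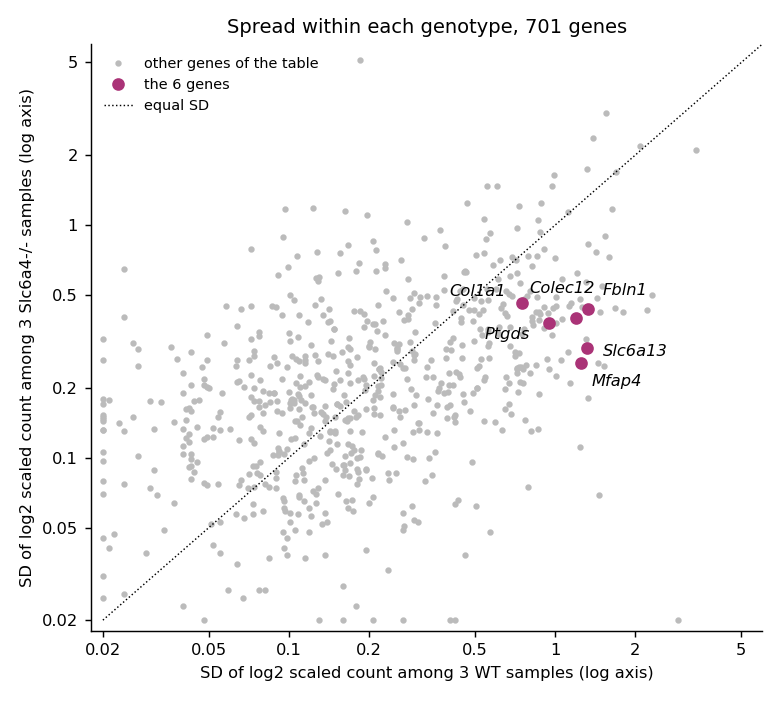
Each point is a gene, with the SD of its log2 scaled count among the 3 WT samples on the horizontal axis and among the 3 Slc6a4-/- samples on the vertical axis, both logarithmic, and SDs under 0.02 drawn at 0.02. The 5 genes other than *Col1a1* lie far to the right (0.95 to 1.33) and below the line of equal spread, at 0.26 to 0.43 on the vertical axis.

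WT sample 3 therefore set much of the size of each fold change. Without it the log2 fold changes were 0.34 (SE 0.34) for *Fbln1*, 0.56 (SE 0.32) for *Mfap4*, 0.49 (SE 0.31) for *Colec12*, 0.45 (SE 0.28) for *Slc6a13*, 0.40 (SE 0.26) for *Ptgds* and -0.89 (SE 0.32) for *Col1a1*. Converted from these log2 values, the fold change went from 2.09 to 1.26 for *Fbln1*, from 2.25 to 1.37 for *Slc6a13* and from 2.32 to 1.47 for *Mfap4*. Such fold changes compare means of log2 values and differ from the ratios of mean scaled counts given earlier. Without WT sample 1, in turn, the 5 genes had log2 fold changes of 1.33 to 1.79, and all 5 were then without overlap, as were 48.8% of all 701 genes in that direction. With WT sample 2, WT sample 3 or Slc6a4-/- sample 1 left out, 0 of the 5 were without overlap. Of all 701 genes, 34.8%, 37.1% and 36.7% were without overlap in that direction in these cases. The number was 1 of the 5 without Slc6a4-/- sample 2 and 2 of the 5 without Slc6a4-/- sample 3. Beside these stood 39.9% and 41.7% of all genes in that direction. *Col1a1* was without overlap in each case, as were between 29.2% and 38.9% of all genes on the lower side.

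**Figure D3:**
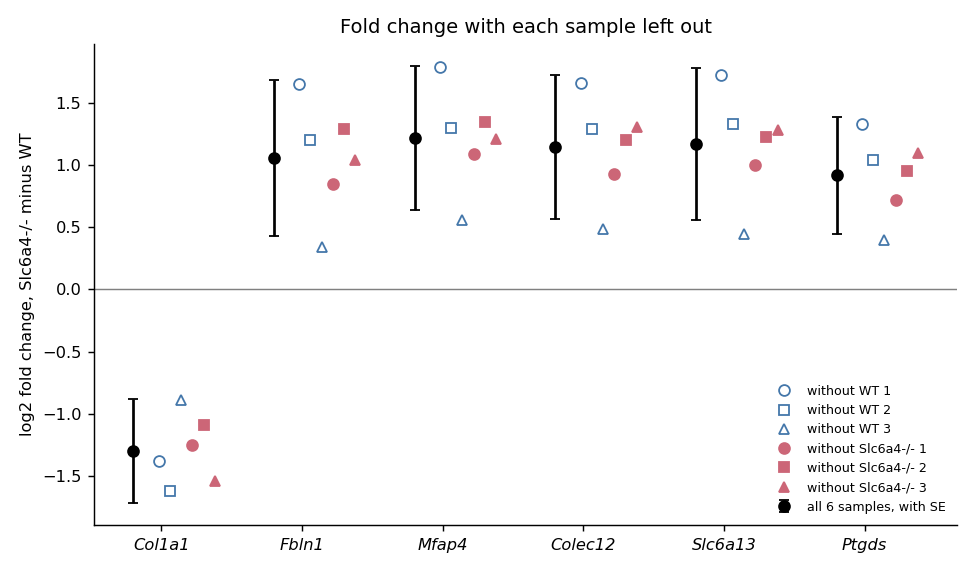
Log2 fold change (Slc6a4-/- minus WT) of each gene with all 6 samples (black, with SE) and with each sample left out (open symbols for a WT sample, filled for a Slc6a4-/- sample). Leaving out WT sample 3 brings each of the 6 values nearest to 0, and the sign of each gene is kept throughout.

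Ratios of counts within a sample need no scaling. Among the 5 genes, the 10 pairwise ratios varied by 1.19-fold to 1.95-fold over the 6 samples. The tightest pair was *Slc6a13* and *Colec12*, genes of a transporter and a scavenger receptor on different chromosomes. There were 3.47, 3.32 and 3.00 *Slc6a13* counts per *Colec12* count in WT samples and 3.07, 3.28 and 3.58 in Slc6a4-/- samples, although each gene alone varied more than 5-fold within WT. The widest pair was *Mfap4* and *Ptgds*, whose log2 ratio was lowest in WT sample 3 (-4.85) and highest in Slc6a4-/- sample 3 (-3.89).

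*Col1a1* kept no such proportion. Its ratios to the other 5 varied by 24.0-fold to 36.0-fold over the 6 samples. Its log2 ratio to the mean of the 5 was -2.65, -2.33 and 0.72 in WT and -4.29, -4.06 and -3.16 in Slc6a4-/- retina. WT sample 3 thus stood apart from every other sample, and the genotypes did not overlap. The ratio averaged -1.42 ± 1.86 and -3.84 ± 0.60 (SD, n = 3 pools), a difference of -2.41, and without WT sample 3 the difference was -1.34. The direction follows from how the genes were chosen. Set against the summed counts of the 5 genes, the *Col1a1* count came to 1.70%, 2.01% and 15.4% of that sum in WT samples, and to 0.543%, 0.643% and 1.23% of it in Slc6a4-/- samples, the sum not including *Col1a1*.

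**Figure D4:**
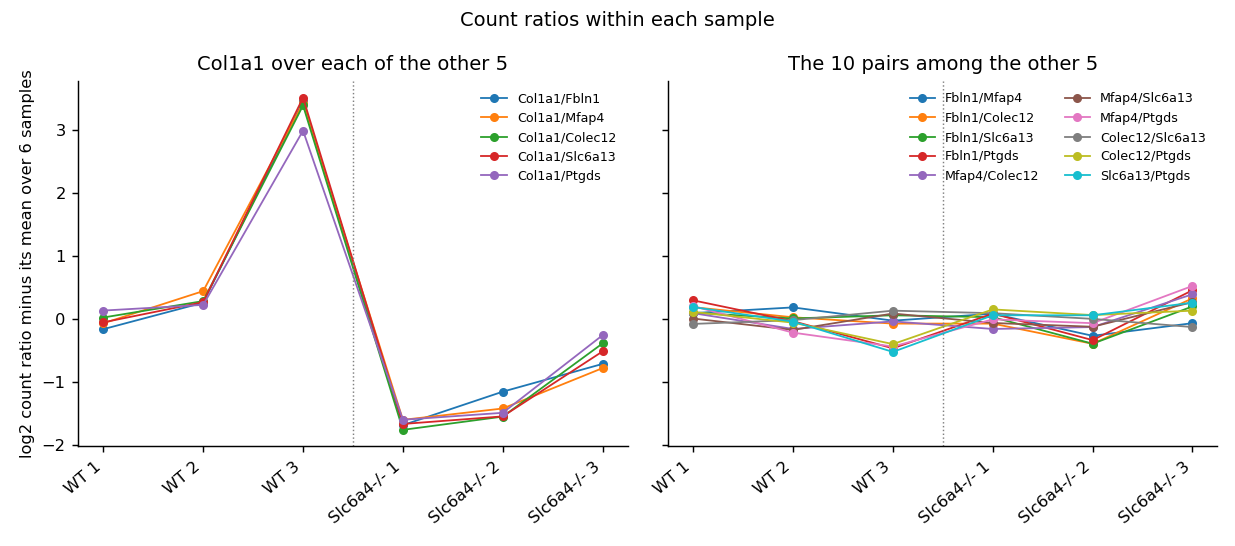
Log2 ratio of the counts of 2 genes within each sample, minus the mean of that ratio over the 6 samples, for *Col1a1* over each other gene (left) and for the 10 pairs of the other 5 (right). Ratios with *Col1a1* peak in WT sample 3 and are lowest in Slc6a4-/- samples 1 and 2, whereas the other pairs vary by 1.95-fold at most.

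Per kilobase of annotated exon, the order of levels in WT was *Ptgds* at 1878 ± 1051 scaled counts, *Fbln1* at 464.7 ± 345.1, *Slc6a13* at 206.6 ± 148.4, *Mfap4* at 75.01 ± 55.5, *Col1a1* at 31.8 ± 17.2 and *Colec12* at 20.4 ± 13.8 (SD, n = 3). Each neighbouring pair in this order overlapped between WT samples. In Slc6a4-/- the first 4 kept their order, at 3204 ± 857, 782.1 ± 229.0, 373.1 ± 79.7 and 141.5 ± 24.9, and *Colec12* at 38.0 ± 10.9 came before *Col1a1* at 12.1 ± 4.0, with no overlap between neighbours. Sample by sample, *Ptgds*, *Fbln1* and *Slc6a13* ranked 1, 2 and 3 throughout, in WT as in Slc6a4-/-. *Col1a1* was the lowest of the 6 in 5 of 6 samples. In WT sample 3 it was instead the 4th, at 51.2 scaled counts per kilobase, above *Mfap4* at 23.7.

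The genes most like each of the 6 were taken as those with the smallest root mean square difference of centred log2 scaled counts over the 6 samples, among 580 genes with at least 20 counts in every sample. For *Fbln1* they were *Mfap4* (0.145), *F5* (0.159), the gene of coagulation factor V, and *Optc* (0.164), the gene of opticin, a vitreous proteoglycan made by ciliary epithelium. For *Mfap4* they were *Crhbp* (0.107), *Ogn* (0.110) and *Optc* (0.127). The study names *Crhbp* as a gene of susceptible retinal ganglion cell subtypes, and *Ogn* encodes the small leucine-rich proteoglycan osteoglycin. *Optc* had scaled counts of 1045, 640.4 and 175.7 in WT and 1211, 945.1 and 1112 in Slc6a4-/-, so that WT sample 3 was the lowest here as well.

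*Colec12* was closest to *Gja1* (0.062), which encodes the gap junction protein connexin 43, and then to *Slc6a13* (0.092). *Gja1* had 1099, 687.8 and 232.5 in WT and 1714, 1192 and 905.1 in Slc6a4-/-. Nearest to *Slc6a13* were *Colec12* (0.092), *Optc* (0.136) and *Ogn* (0.140), and nearest to *Ptgds* were *Tyrp1* (0.096), an enzyme gene of melanin synthesis, *Mme* (0.098), which encodes the peptidase neprilysin, and *Fam129a* (0.110).

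*Col1a1* had no neighbour as close. Its nearest genes were *Hist1h2bq* (0.312), which encodes a histone H2B, *Col26a1* (0.400), a collagen chain gene, and *Crb1* (0.425), a gene of cell polarity. *Col26a1* had scaled counts of 95.9, 132.6 and 156.8 in WT and 50.5, 48.4 and 89.5 in Slc6a4-/-, highest in sample 3 of each genotype, as *Col1a1* was. The other 5 genes were 1.51 to 1.71 away from *Col1a1*.

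Of 44 listed collagen genes, 11 were in the table, and 0 of them passed limma's adjusted threshold in either direction. By limma, 6 of the 11 had an unadjusted p under 0.05, beside 363 of all 701 genes. The study selected the table at that threshold with its own p-values. Nothing is therefore read from the counts of unadjusted p under 0.05 in this or any later list. The means of the collagen genes were higher in Slc6a4-/- for 8 and lower for 3 (*Col1a1*, *Col26a1* and *Col7a1*), and their median log2 fold change was 0.27. The WT order 1, 2, 3 held for 4 of the 11 (36.4%). *Col18a1*, a basement membrane collagen, was one of them, with 4192, 2577 and 1452 in WT and 4812, 3004 and 4349 in Slc6a4-/-. *Col6a6*, a microfibril-forming collagen VI chain, was not, with 32.3, 31.3 and 53.4 in WT and 64.3, 55.7 and 68.9 in Slc6a4-/-.

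The elastic fibre and glycoprotein list had 13 of 51 genes in the table, 12 of them higher in mean in Slc6a4-/- and 12 of them in the WT order 1, 2, 3, with a median log2 fold change of 0.86. Without WT sample 3 that median was 0.35. By limma, 0 passed the adjusted threshold and 6 had an unadjusted p under 0.05, beside 363 of all 701 genes. *Fbln2*, encoding fibulin 2, had 86.2, 41.0 and 27.8 in WT and 118.4, 101.6 and 100.8 in Slc6a4-/-. Unlike *Fbln1*, it was higher in Slc6a4-/- without overlap, as were 30.8% of this list and 33.2% of all 701 genes. *Ltbp2*, which encodes a latent TGF-beta binding protein, had 1389, 785.9 and 357.0 against 1597, 956.6 and 1649.

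Proteoglycan and hyaluronan genes, 9 of 32 listed, had higher means in Slc6a4-/- for 9 of 9, a median of 1.01 and the WT order 1, 2, 3 for 7. By limma, 0 passed the adjusted threshold and 2 had an unadjusted p under 0.05, beside 363 of all 701 genes. Without WT sample 3 the median was 0.45. *Vcan*, encoding versican, had 2369, 1562 and 721.9 in WT and 3820, 2286 and 2528 in Slc6a4-/-. Matrix processing genes, 4 of 23 listed, were split into 2 higher and 2 lower, with a median of 0.07, or -0.08 without WT sample 3 (limma, 0 past the adjusted threshold and 1 with an unadjusted p under 0.05). *P4ha3*, a subunit of the prolyl hydroxylase that acts on collagen, lay lower as *Col1a1* did, with 12.9, 15.1 and 18.9 in WT and 4.59, 9.02 and 6.17 in Slc6a4-/-.

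Of 43 listed fibroblast and meningeal genes other than matrix proteins, 21 were in the table. The mean was higher in Slc6a4-/- for 21 of 21, with a median of 0.74, or 0.45 without WT sample 3. By limma, 0 passed the adjusted threshold and 6 had an unadjusted p under 0.05, beside 363 of all 701 genes. The WT order 1, 2, 3 held for 16 of the 21. *Slc13a4*, a sulfate transporter gene, had 640.0, 353.6 and 159.1 in WT and 974.1, 640.2 and 600.6 in Slc6a4-/-. Leaving out the 6 genes themselves, the 5 lists gave 52 genes, of which 47 were higher and 5 lower in mean in Slc6a4-/-, beside 397 and 304 of the 701. Of the 52, 18 (34.6%) were higher without overlap, a share close to the 33.2% of the whole table, and 3 (5.77%) were lower without overlap, beside 28.5%. The WT order 1, 2, 3 held for 37 of the 52 (71.2%, beside 27.8%). Their median log2 fold change was 0.63, and 0.36 without WT sample 3, beside 0.23 and 0.22 over all 701 genes.

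**Figure D5:**
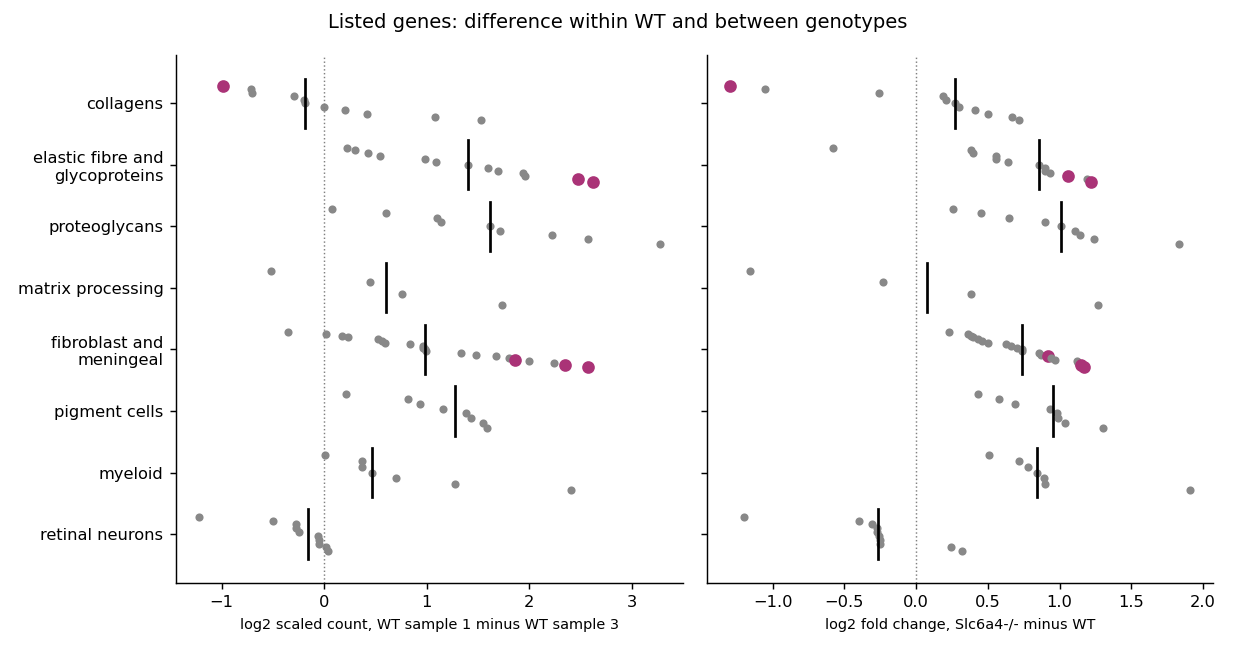
Each point is a listed gene, placed by the log2 difference between WT samples 1 and 3 (left) and by its log2 fold change between genotypes (right). Purple points are the 6 genes, grey points other genes of that list, and black bars list medians; *Col1a1* is the leftmost collagen in both panels, and the other 5 lie at the right of their lists.

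Markers of other cell types also differed across the same samples. Pigment cell genes, 8 of 16 listed, had 7 in the WT order 1, 2, 3, and their summed scaled counts ran from 1495 (WT sample 3) to 3189 (WT sample 1) in WT and from 3046 to 4962 in Slc6a4-/-. All 8 were higher in mean in Slc6a4-/-, with a median log2 fold change of 0.95, or 0.53 without WT sample 3. Myeloid genes, 7 of 15 listed, summed to between 218.0 (WT sample 3) and 380.4 (WT sample 1) in WT and between 420.6 and 610.5 in Slc6a4-/-, and 7 of 7 were higher in mean, with a median of 0.84. The defining pigment epithelium genes *Rpe65* and *Best1* and the myeloid genes *Csf1r* and *Ptprc* are not in the table and were not analysed here.

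Retinal neuron genes ran in the opposite direction, with 8 of 10 lower in mean in Slc6a4-/- and a median of -0.26. Their sum was lowest in sample 1 of each genotype, 49740 in WT and 45620 in Slc6a4-/-, the samples in which the 5 genes were highest. In WT this rested on *Opn1sw*, the gene of the short-wavelength cone opsin, with 5584, 17250 and 12990, and without it the WT sums were 44160, 43120 and 46330. Endothelial genes, 3 of 12 listed, were higher in mean for 3 of 3 and had a median of 0.62. Mural cell genes, 3 of 13, were higher for 1 and lower for 2, with a median of -0.31. Small negative medians such as those of the neuron and mural cell genes depend on the scaling. Leaving the scaling out moved the log2 fold change of *Col1a1* from -1.30 to -1.05. Of the counts that set the scaling, 10 genes held 43.1%. None of the genes on these 5 lists of other cells or on the gland list below passed limma's adjusted threshold. By limma, 3 pigment cell, 4 myeloid, 4 retinal neuron, 2 endothelial, 3 mural cell and 6 gland genes had an unadjusted p under 0.05. Over the whole table it was 363 of 701 genes.

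Secretory genes of nasal and orbital glands were, like *Col1a1*, mostly lower in mean in Slc6a4-/- retina. Of 12 listed, 10 were in the table, 8 of them on that side, with a median log2 fold change of -1.48 and 0 of 10 in the WT order 1, 2, 3. *Obp1b*, which encodes an odorant-binding protein, had 22.6, 49.6 and 81.2 in WT and 28.5, 9.02 and 13.4 in Slc6a4-/-. Summed over the 10 genes the groups were not apart, at 623.1 to 744.6 in WT and 635.3 to 1111 in Slc6a4-/-, because *Lcn2* and *Muc2*, both higher in mean in Slc6a4-/-, hold most of the counts. The part of each of these cell types in the values of the 6 genes was not tested.

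For 2 of the 6 genes a direct neighbour in the genome was also in the table. *Slc6a12*, which encodes the betaine and GABA transporter BGT1, starts 5342 bases after the end of *Slc6a13* on the same strand. It had 279.1, 226.4 and 155.7 in WT and 348.9, 259.8 and 267.4 in Slc6a4-/-, the same order in WT over a smaller range, with a log2 fold change of 0.43 (SE 0.24). *Slc6a13* had 3.71, 2.61 and 1.11 counts per *Slc6a12* count in WT samples and 3.86, 3.79 and 3.43 in Slc6a4-/- samples. *Atxn10*, which starts 49709 bases after *Fbln1*, had 2983, 3245 and 3464 in WT and 2819, 2766 and 2983 in Slc6a4-/-, the reverse order in WT.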

How the data were processed

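Per the labels and the study's methods, ribosome-depleted stranded total RNA libraries were sequenced and the authors aligned reads to GRCm38 and obtained gene counts, both with CLC Genomics software. The authors deposited raw counts of 701 genes selected at an unadjusted p under 0.05, written with digit commas (removed here; 25 blank lines were skipped), a mean RPKM per gene (that of whichever genotype was higher), and their own fold changes and p-values, which were not used. The study gives one nominal read number for all samples, and no total per sample was used. Counts were divided by each sample's relative sum over the table (factors 0.899 to 1.22), because the planned totals from the deposited RPKM values agreed for only 11 WT genes, under the minimum of 30. The genotypes were compared with limma 3.58.1 (trend, two-sided, R 4.3.3) on log2(scaled count + 1) with Benjamini-Hochberg adjustment over 701 genes. The fit was checked on simulated counts whose spread was set alike in both genotypes. That check does not cover genes with unlike spread, such as the 5 genes other than *Col1a1*. Fold changes on the log2(scaled count + 1) scale understate those of low genes. Because the counts carry commas, no count model was run. The 6 genes and all lists were chosen with earlier results of these data known, and lists were written with the gene table read. Named are the 6 genes, *Slc6a4*, the 3 most alike genes of each (1 of those of *Colec12* is not reported here), direct neighbours, and up to 5 genes of each list by size of change; *Col7a1*, *Lcn2* and *Muc2* were named after their values were seen. Replicate numbers are not known to pair the samples. Same-numbered samples had deviations correlated at 0.252, -0.161 and 0.079, and samples of unlike number at -0.24 to 0.143. With 3 samples per genotype these values cannot decide whether the samples were paired. Positions came from GENCODE M21 and promoters from RefSeq (GRCm38.p6).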

Additional observations from a re-analysis of the deposited data

How the results depend on the processing

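No direction of the 6 genes changed under 14 alternatives (other scalings, a pseudocount of 5, a filter of 10 counts, limma without trend, voom weights, a replicate block, each sample left out), and none of the 6 was called under any. The 6 genes were chosen by their direction in these same samples, so nothing is read from the kept directions. Log2 fold changes ran from -1.62 to -0.89 for *Col1a1* with a sample left out, and from 0.45 to 1.66 for the median of the other 5. The log2 ratio of *Col1a1* to the other 5 ran from -3.03 to -1.34. The count of called genes among the 701 was less stable than the values: 10 in the analysis reported, 160 without scaling, 36 without the trend, 6 with at least 10 counts in every sample, and 4 to 32 with a sample left out, the highest without Slc6a4-/- sample 3 and the lowest without Slc6a4-/- sample 2. With the replicate number as a block it was 5, and the numbers are not known to pair the samples. Genes lower in Slc6a4-/- without overlap numbered 51 without scaling, against 200. Scaling by sums of the table, planned as an alternative, became the scaling used. Totals from the RPKM values with a looser rule, chosen after seeing the data, gave 15 called genes and a *Col1a1* log2 fold change of -1.22. The table holds selected genes only, so its sums are not the depth and the scaling cannot be checked against unselected genes. Each value rests on 3 pools per genotype.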
